A study of Mus musculus with 61 samples.

Results

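Innate immune and epithelial defence genes were followed in mouse pancreatic ductal organoid cells that carried inducible vectors for the transcription factors Ngn3, Pdx1 and MafA. The 8 genes were Lbp, Tlr4, Il1rn, Lyn, Dmbt1, Trf, Vtcn1 and Dram1, out of 46078 genes in the deposited table. All 8 were among the 24004 genes that passed the filter on low values. They were selected on measured values, because they were lower in wild-type cells with all 3 factors than in cells with 2 factors. That contrast is therefore described here without a test. The tests below use the other conditions and a separate set of cultures in which Ngn3 carried mutated phosphorylation sites.

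The organoids were three-dimensional cultures of C57BL/6 ductal cells, infected with doxycycline-inducible lentiviruses for GFP-Ngn3, LSSOrange-Pdx1 and tdTomato-MafA and with a vector for the Tet-On transactivator. After 8 days of doxycycline, cells were sorted by their fluorescent proteins into pools of 50 cells and sequenced. Cultures received either wild-type Ngn3 (WT) or 6SA Ngn3, in which 6 serine sites for cyclin-dependent kinases were changed to alanine. Each kind of culture gave 6 conditions, which were Pdx1, MafA, Pdx1-MafA, Ngn3-Pdx1, Ngn3-MafA and Ngn3-Pdx1-MafA. Cells without Ngn3 came from the same infected cultures and served as the control of that culture. The vectors were switched on in adult ductal cells in culture, so each condition is a forced expression state and not a stage of the animal. Uninfected cells and cells with Ngn3 alone were not analysed here.

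There were 61 libraries, of which 58 had over 1000000 gene counts and were kept. After technical repeats were summed there were 32 samples with 2579583 to 19461008 counts, and 2 or 3 samples in each condition. Replicates 1 and 2 were at passage 2 and replicate 3 at passage 5. The submitters call them biological replicates without saying whether they came from separate animals, so p-values measure the spread between these samples only. Levels are given as CPM (counts scaled to a common total of 1000000) on library sizes scaled by TMM, the edgeR normalization. Neurog3, the gene of Ngn3, was at 7.87 to 329 CPM in the 17 samples sorted for Ngn3 and at 0 to 0.788 CPM in the 15 samples without it.

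Lipopolysaccharide of bacteria is bound in the extracellular space by the protein of Lbp, passed on to Cd14 and recognised by the receptor Tlr4, which signals to NF-kB through Myd88. Il1rn encodes a secreted antagonist that blocks the interleukin-1 receptor, and Lyn is a kinase of the Src family that acts beside immune receptors. Dmbt1 is a secreted mucosal glycoprotein that binds bacteria, Trf is the iron carrier transferrin, Vtcn1 is an inhibitory ligand of the B7 family, and Dram1 is a lysosomal membrane protein linked to autophagy. Ductal epithelium lines the route between gut and pancreas and is known to express such defence genes.

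Upstream sequence was held here for 3 of the 8 genes in the RefSeq promoter table (GRCm38.p6), and it is shown because these members fell together. The other 5 (Lbp, Tlr4, Lyn, Dmbt1 and Trf) have no entry in it. The 250 bases before the annotated start are given 5′ to 3′ on the gene's strand, with each match to CANNTG, the E-box letters that basic helix-loop-helix factors such as Ngn3 can bind, in capitals.
Il1rn, chr2:24336610-24336859, plus strand: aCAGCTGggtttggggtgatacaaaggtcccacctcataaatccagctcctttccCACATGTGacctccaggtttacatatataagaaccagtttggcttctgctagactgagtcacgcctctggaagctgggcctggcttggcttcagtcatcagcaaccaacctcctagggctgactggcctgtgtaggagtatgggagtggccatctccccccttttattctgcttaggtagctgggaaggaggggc
Vtcn1, chr3:100825209-100825458, plus strand: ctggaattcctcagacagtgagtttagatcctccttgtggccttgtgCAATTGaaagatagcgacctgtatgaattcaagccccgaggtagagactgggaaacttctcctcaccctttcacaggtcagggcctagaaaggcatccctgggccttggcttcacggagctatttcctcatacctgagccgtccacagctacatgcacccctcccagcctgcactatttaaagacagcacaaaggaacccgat
Dram1, chr10:88357076-88357325, minus strand: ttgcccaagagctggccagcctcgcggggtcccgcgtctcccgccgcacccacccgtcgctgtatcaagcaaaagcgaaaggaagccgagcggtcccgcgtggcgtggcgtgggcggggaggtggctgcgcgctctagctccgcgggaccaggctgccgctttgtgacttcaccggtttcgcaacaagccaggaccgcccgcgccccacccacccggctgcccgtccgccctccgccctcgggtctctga
The Il1rn window holds 3 matches, of which 2 overlap, the Vtcn1 window holds 1 and the Dram1 window holds 0. The annotated start used for Dram1 lies inside the longer span of the gene in GENCODE, and not at its outer end. Of 32851 windows of the same length in the table, 66.2% hold at least 1 match, so the letters are common. Il1rn has 2 further annotated starts inside the gene, and each of those overlapping windows holds 1 match. On either strand, TTGCNNAA (C/EBP) matched 1 time upstream of Vtcn1 and 2 times upstream of Dram1, and is in 9.56% of all windows. TGANTCA (AP-1) matched 1 time in the first Il1rn window and is in 6.75% of all windows. The NF-kB motif, TTCNNNGAA (STAT), GTTAAT (HNF1) and TGTTTAC (FOXA) matched none of the 5 member windows, and are in 7.25%, 7.02%, 6.43% and 3.17% of all windows. A match is a description of letters in these windows and nothing more.

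By position in GRCm38, the build of the counts, Lbp lies at chr2:158306493-158332852 and Il1rn at chr2:24336853-24351494. Tlr4 lies at chr4:66827584-66930284, Lyn at chr4:3678115-3813122 and Dmbt1 at chr7:131032053-131121630. Trf lies at chr9:103204001-103230444, Vtcn1 at chr3:100825459-100896922 and Dram1 at chr10:88322804-88379080. Their identifiers, in the order of this paragraph, are ENSMUSG00000016024, ENSMUSG00000026981, ENSMUSG00000039005, ENSMUSG00000042228, ENSMUSG00000047517, ENSMUSG00000032554, ENSMUSG00000051076 and ENSMUSG00000020057. All are annotated as protein-coding, and counts are summed over the exons of each gene. The span of Dmbt1 overlaps Fgfr2 on the opposite strand, Trf overlaps the protein-coding model Gm20425 on its own strand, and Lyn overlaps 4 non-coding or pseudogene models. The sources used here do not say whether counting used strand, so these 3 genes are less certain than the other 5.

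**Figure D1:**
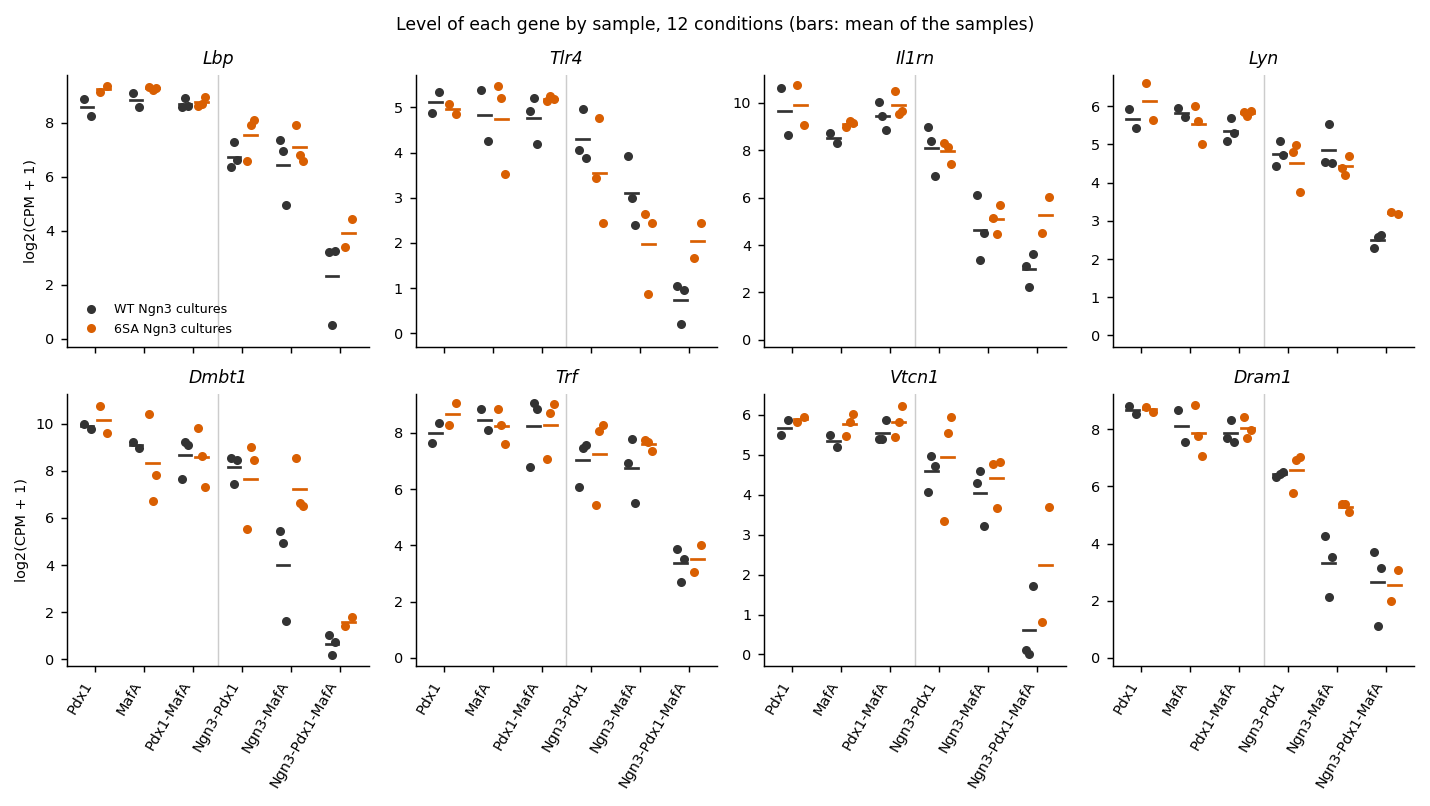
Level of each gene in every sample, as log2(CPM + 1), for 6 factor combinations in WT (black) and 6SA (orange) Ngn3 cultures, with bars at the mean of 2 or 3 samples. To the left of the grey line no sample has Ngn3, and in all 8 panels the 5 samples with all 3 factors lie below the 15 samples without Ngn3. WT samples with all 3 factors and with Pdx1-MafA selected the genes, so this separation is a description. Among 6SA samples alone it held for 8.56% of all genes.

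All 8 genes were expressed in every sample without Ngn3. Per kilobase of exon, the median levels over those 15 samples were 108 CPM for Il1rn, 106 for Dram1, 101 for Lbp, 97.9 for Trf and 83.2 for Dmbt1, and lower at 21.2 for Vtcn1, 12.6 for Lyn and 6.2 for Tlr4. In the 12 samples with Ngn3 and 1 other factor the same medians were 16.9, 15.6, 24.3, 55, 19.2, 9.22, 5.77 and 1.5 CPM per kilobase. In the 5 samples with all 3 factors none exceeded 3.12, the median of Trf, and Dmbt1 was lowest at 0.149. In bulk pools, fewer cells that express a gene and less of its RNA in each cell cannot be told apart. In the gene descriptions below, separations between groups of samples are given without a share of all genes. Those that include WT Ngn3-Pdx1-MafA or WT Pdx1-MafA samples were shaped by the choice of genes, and they are descriptions only.

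Lbp, the soluble protein that delivers lipopolysaccharide to Cd14, was at 307 to 651 CPM without Ngn3, around a median of 488 CPM. With Ngn3 and Pdx1 it was 80.6, 154 and 97.1 CPM in WT cultures and 94.2, 243 and 274 CPM in 6SA cultures. With Ngn3 and MafA it was 165, 123 and 30.4 CPM (WT) and 241, 112 and 95.4 CPM (6SA). Either partner thus left Lbp at an intermediate level. With all 3 factors it was 8.18, 0.439 and 8.64 CPM (WT) and 9.5 and 20.6 CPM (6SA). The 3 classes of sample did not overlap: every sample with all 3 factors was below every sample with Ngn3 and 1 factor, and each of those was below every sample without Ngn3.

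Tlr4, the lipopolysaccharide receptor, was at 10.5 to 43.1 CPM without Ngn3, with a median of 34.4 CPM. With Ngn3-Pdx1 it was 15.6, 30.0 and 13.6 CPM in WT cultures and 9.74, 26.2 and 4.46 CPM in 6SA cultures, and these overlap the range without Ngn3. With Ngn3-MafA it was 14.3, 6.91 and 4.24 CPM (WT) and 5.25, 0.831 and 4.43 CPM (6SA). With all 3 factors WT samples had 1.05, 0.146 and 0.931 CPM, from 13, 1 and 7 counts, and 6SA samples had 2.17 and 4.43 CPM, from 32 and 51 counts. In 6SA cultures the Ngn3-MafA and Ngn3-Pdx1-MafA samples overlapped, whereas in WT cultures they did not.

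Il1rn, the interleukin-1 receptor antagonist, was at 319 to 1749.9 CPM without Ngn3 (median 597) and differed between the partner factors. With Ngn3-Pdx1 it kept 506, 334 and 119 CPM (WT) and 319.9, 278 and 169 CPM (6SA). With Ngn3-MafA it was 67.8, 9.26 and 21.8 CPM (WT) and 34.9, 21.3 and 50.6 CPM (6SA). All 3 factors together gave 7.61, 3.66 and 11.2 CPM (WT) and 22 and 64 CPM (6SA). The 6SA samples with all 3 factors thus overlapped the 6SA Ngn3-MafA samples, and every Ngn3-MafA sample was below every Ngn3-Pdx1 sample.

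Lyn, the Src-family kinase, had the smallest fold difference of the 8 between Ngn3-Pdx1-MafA and Pdx1-MafA cells, in WT and in 6SA cultures. It was at 31.4 to 96.7 CPM without Ngn3 (median 51.2) and at 12.4 to 45.4 CPM with Ngn3 and 1 factor (median 23.5), so these ranges overlapped. All 3 factors together gave 3.89, 4.97 and 5.19 CPM in WT cultures and 8.41 and 7.99 CPM in 6SA cultures. Those 5 samples were below all 27 others.

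Dmbt1, the bacteria-binding glycoprotein, had the widest range without Ngn3, at 105 to 1697 CPM with a median of 587 CPM. With Ngn3-Pdx1 it was 369, 171 and 350.4 CPM (WT) and 45.8, 515 and 349.6 CPM (6SA). With Ngn3-MafA it was 42.3, 29.3 and 2.12 CPM in WT cultures and 372, 99.3 and 89.5 CPM in 6SA cultures. With all 3 factors it was almost absent, at 1.05, 0.146 and 0.665 CPM (WT; 13, 1 and 5 counts) and 1.63 and 2.43 CPM (6SA; 24 and 28 counts). The lowest WT Ngn3-MafA sample was within the range of the samples with all 3 factors.

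Trf, transferrin, was at 110.3 to 535 CPM without Ngn3 (median 325). Ngn3 with 1 factor left it at 42.6 to 309 CPM (median 183), which overlaps the control range. In the presence of all 3 factors it was 13.5, 5.56 and 10.4 CPM (WT) and 7.39 and 15 CPM (6SA), below every other sample.

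Vtcn1, the B7-family ligand, was steady without Ngn3, at 35.5 to 73.3 CPM (median 55.5), and was at 8.32 to 61.1 CPM with Ngn3 and 1 factor (median 24.2). With all 3 factors WT samples had 0.081, 0 and 2.26 CPM, from 1, 0 and 17 counts, and 6SA samples had 0.746 and 12 CPM, from 11 and 138 counts. In the sample with 0 counts, 3 counts would be 0.439 CPM, which is the level its depth can show. The 6SA sample at 12 CPM stood above the other 4 and within the range of Ngn3-MafA samples.

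Dram1, the lysosomal protein, was at 132 to 461 CPM without Ngn3 (median 322). With Ngn3-Pdx1 it was 78.8, 85.3 and 90.2 CPM (WT) and 53.8, 120.2 and 129.8 CPM (6SA). With Ngn3-MafA it was 18.3, 3.39 and 10.4 CPM in WT cultures and 40.7, 41 and 33.5 CPM in 6SA cultures. In the presence of all 3 factors it was 12, 1.17 and 7.84 CPM (WT), which overlaps WT Ngn3-MafA, and 2.98 and 7.47 CPM (6SA), which is below 6SA Ngn3-MafA. Every sample with Ngn3 was below every sample without it.

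In the wild-type contrast on which the genes were selected, the mean level with all 3 factors was 720.5-fold lower than the mean Pdx1-MafA level for Dmbt1, 99.4-fold for Il1rn and 73.2-fold for Lbp. It was 59.9-fold lower for Vtcn1, 38.7-fold for Tlr4, 37.5-fold for Trf, 34.1-fold for Dram1 and 8.68-fold for Lyn. The lowest of the 8 fold differences is that of Lyn, the highest that of Dmbt1. The 8 genes were also lower with all 3 factors than in WT Ngn3-Pdx1 cells, with log2 fold changes of -2.49 (Lyn) to -8.78 (Dmbt1), and than in WT Ngn3-MafA cells, with -0.60 (Dram1) to -5.19 (Dmbt1). These differences chose the genes or share samples with those that did, and they support nothing by themselves.

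The question of which factor goes with the lower levels was taken first for Ngn3. Samples with Ngn3 were compared with samples that had the same other factors and no Ngn3, in 5 pairs of conditions outside the selecting contrast. The 40 differences, of 8 genes in 5 pairs, were all negative. Averaged over the 5 pairs, all 8 genes were lower with Ngn3 at an adjusted p under 0.05 (edgeR quasi-likelihood test with Benjamini-Hochberg adjustment over 24004 genes). Of all genes tested, 7.24% were lower by the same rule. The median log2 fold change was -2.27 over the 8 genes and 0.07 over all genes.

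**Figure D2:**
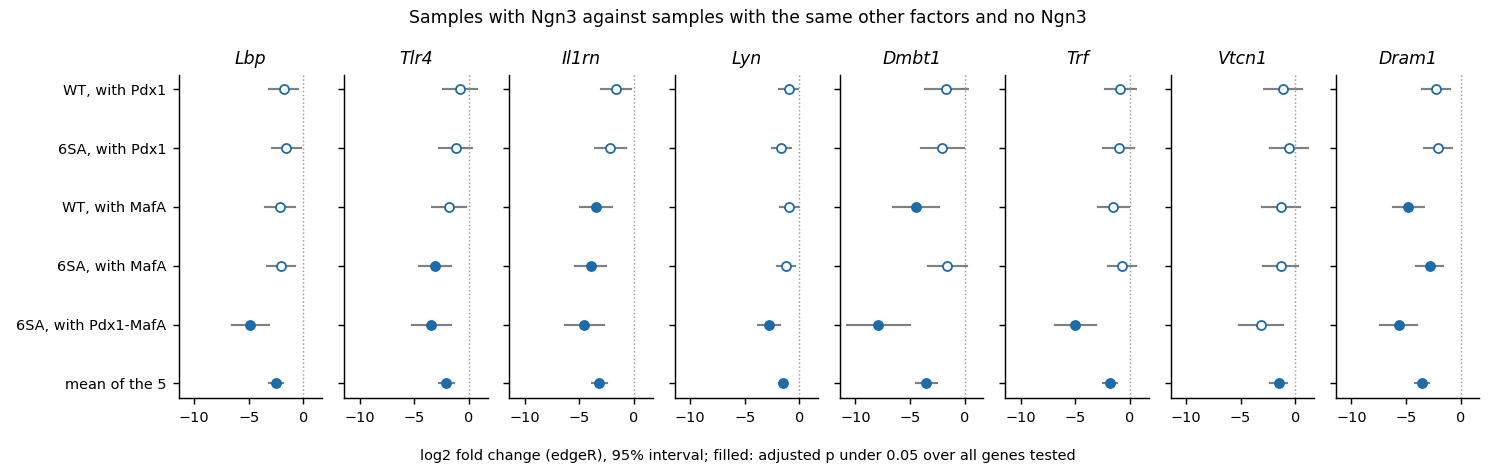
Log2 fold change of each gene between samples with and without Ngn3 in 5 pairs of conditions and in their mean, with the 95% interval from edgeR. Filled points have an adjusted p under 0.05 over all genes tested. Every point lies to the left of 0, and the mean of the 5 pairs is filled in all 8 panels.

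The largest average decreases were those of Dmbt1 and Dram1. Dmbt1 fell by 3.52 on the log2 scale (SE 0.47, edgeR adjusted p = 3.77e-06) and Dram1 fell by 3.51 (SE 0.30, adjusted p = 3.6e-09). Il1rn fell by 3.16 (SE 0.33, adjusted p = 7.7e-08) and Lbp fell by 2.49 (SE 0.30, adjusted p = 7.89e-07). Tlr4 fell by 2.06 (SE 0.34, adjusted p = 6.29e-05), Trf fell by 1.83 (SE 0.32, adjusted p = 0.000135), Lyn fell by 1.49 (SE 0.19, adjusted p = 2.56e-06) and Vtcn1 fell by 1.49 (SE 0.38, adjusted p = 0.00651). The rule does not name the 2-factor cells, and if WT Ngn3-Pdx1 or WT Ngn3-MafA samples also entered the choice of genes, their high levels would have made these averages smaller.

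Pair by pair, calls were made where MafA was present. With Pdx1 as the only other factor, 0 of 8 genes passed the test in WT cultures and 0 of 8 in 6SA cultures, where 0% and 0% of all genes were lower. At an unadjusted p under 0.05 there were 4 members in WT and 5 in 6SA cultures, beside 1201 and 1665 of all genes in either direction. DESeq2 called 1 member lower in each, beside 20 and 15 of all genes. With MafA as the only other factor, Dram1, Il1rn and Dmbt1 fell in WT cultures (3 of 8, against 0.354% of all genes). In 6SA cultures Il1rn, Dram1 and Tlr4 fell (3 of 8, against 0.404% of all genes). The replicate number pairs the samples of this 6SA comparison. In the fit with a replicate block 4 of 8 passed there, beside 278 lower of all genes in place of 97. Without replicate 2, 0 of 8 genes passed in either culture. Dram1 fell by 4.78 (edgeR adjusted p = 0.000904) in WT and fell by 2.81 (adjusted p = 0.0112) in 6SA cultures, and Il1rn fell by 3.49 (adjusted p = 0.0174) in WT and fell by 3.98 (adjusted p = 0.00166) in 6SA cultures.

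The difference between the Ngn3 effect with Pdx1 and that with MafA was tested itself, and 0 of 8 genes passed with edgeR, as 0% of all genes did. For Il1rn the decrease was smaller with Pdx1 by 1.84 (95% interval 0.43 to 3.25) and for Dram1 by 1.64 (95% interval 0.37 to 2.92) on the log2 scale. These 2 genes were the members with an unadjusted p under 0.05, and their adjusted p was 1.00 in both cases. A difference between the partner factors was thus not detectable for any of the 8 genes after adjustment.

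Cells of the 6SA cultures repeated the pattern of the selecting contrast. All 8 genes were lower in the 2 samples of 6SA Ngn3-Pdx1-MafA than in all 3 samples of 6SA Pdx1-MafA, a separation seen in 14.6% of all genes. They were also below every 6SA sample without Ngn3, which held for 8.56% of all genes. In the edgeR test 7 of 8 fell, against 2.5% of all genes.

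Dmbt1 fell by 7.89 on the log2 scale (SE 1.43, edgeR adjusted p = 0.00114), from 894, 392 and 159 CPM to 1.63 and 2.43 CPM. Dram1 fell by 5.68 (SE 0.83, adjusted p = 0.000141), from 344, 207 and 249 CPM. Trf fell by 4.99 (SE 0.90, adjusted p = 0.00115), from 133, 417 and 517 CPM. Lbp fell by 4.86 (SE 0.82, adjusted p = 0.000577), from 396, 413 and 502 CPM. None of these 4 overlapped between the groups.

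Il1rn, Tlr4 and Lyn passed as well, and Vtcn1 did not. DESeq2 and the fit with a replicate block each called 8 members lower, beside 1349 and 1040 of all genes. Il1rn fell by 4.55 (SE 0.86, adjusted p = 0.00176), from 1454, 741 and 818 CPM. Tlr4 fell by 3.43 (SE 0.87, adjusted p = 0.0172), from 34.4, 37.0 and 35.4 CPM, and Lyn fell by 2.75 (SE 0.49, adjusted p = 0.000947), from 56.3, 52.3 and 57.6 CPM. Vtcn1 had 42.3, 55.5 and 73.3 CPM without Ngn3 and a log2 difference of -3.17 (SE 0.98, adjusted p = 0.0542), which did not pass. The count depends on the replicates: without replicate 2 only 1 sample with all 3 factors remained and 3 of 8 genes passed, Lbp, Il1rn and Dram1, and without replicate 1 there were 6.

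Averaged over the 3 pairs within 6SA cultures, a contrast added after the data were seen, all 8 genes fell, against 5.98% of all genes. Values ran from -1.70 for Vtcn1 (edgeR adjusted p = 0.0204) to -3.83 for Dmbt1 (adjusted p = 9.93e-05). All 8 also passed when the model held only the 6SA cultures, so this result does not use any wild-type sample. The 5.98% belongs to the model of all conditions, and the share of all genes in the 6SA-only model is not given here.

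Without Ngn3, adding MafA to Pdx1 or Pdx1 to MafA did not lower the genes detectably. No cells without all of these factors were compared, so an effect of Pdx1 or MafA alone was not tested. Mafa, the gene of MafA, was at only 0.471, 1.45 and 0 CPM in the 6SA Pdx1-MafA samples. Pdx1 was at 36.4, 24.6 and 14.0 CPM there, which overlaps the 19.2, 10.9 and 4.22 CPM in 6SA MafA samples. Between 6SA Pdx1-MafA and 6SA Pdx1 cells, 0 of 8 genes passed, and the same was found between 6SA Pdx1-MafA and 6SA MafA cells (0% of all genes lower in each). No member reached an unadjusted p under 0.05 in either, while 298 and 499 of all genes did. DESeq2 called 0 members lower in each, beside 2 and 1 of all genes. Member values ranged from -1.36 (Dmbt1, MafA added to Pdx1) to 0.84 (Il1rn, Pdx1 added to MafA). For Lyn, the most precise, the 95% intervals were -1.28 to 0.49 and -0.58 to 1.02, so a decrease of the size seen with all 3 factors lies outside both. For Dmbt1 the interval with MafA added reached -3.31. In WT cultures the corresponding values, given as a description, ran from -1.08 to 1.00.

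**Figure D3:**
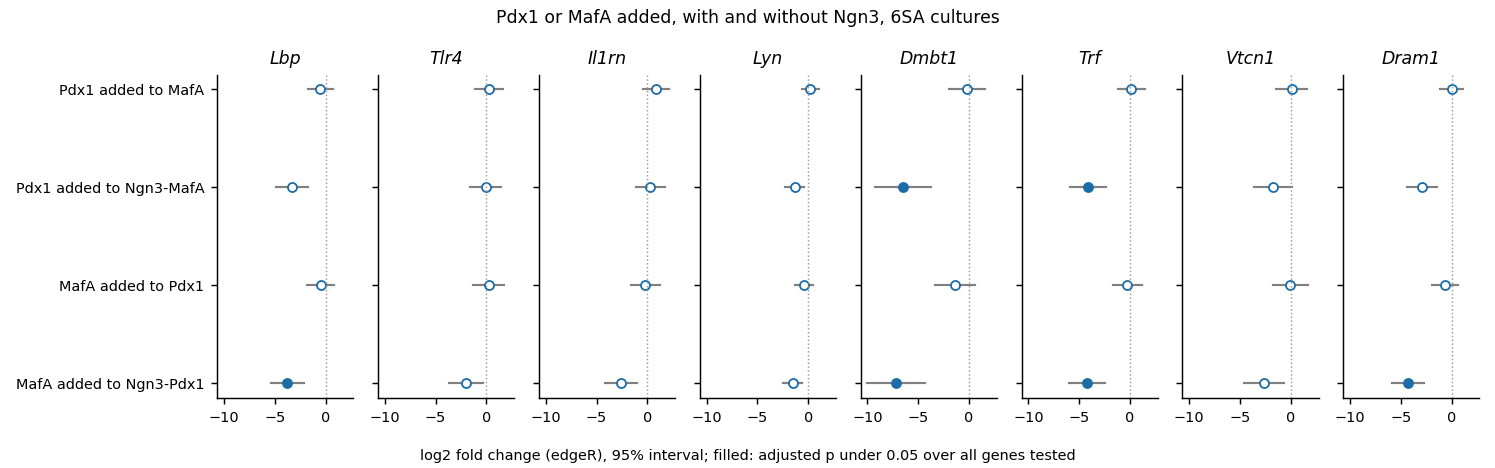
Log2 fold change of each gene when Pdx1 or MafA is added in 6SA cultures, without Ngn3 and on top of Ngn3 (lines as labelled), with the 95% interval from edgeR. Filled points have an adjusted p under 0.05. Lines without Ngn3 centre near 0, and those on top of Ngn3 reach -7.22 for Dmbt1.

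On top of Ngn3 the third factor went with lower levels of some members. The levels of the other factors also differed between these pools. Neurog3 was at 163 and 329 CPM in 6SA Ngn3-Pdx1-MafA samples. It was at 226, 34.9 and 38.8 CPM in 6SA Ngn3-Pdx1 and at 133, 62.6 and 24.9 CPM in 6SA Ngn3-MafA samples. Pdx1 was at 150 and 134 CPM with all 3 factors, against 48.4, 34.4 and 21.8 CPM in 6SA Ngn3-Pdx1. The part of these levels was not tested. Adding MafA to 6SA Ngn3-Pdx1, 4 of 8 genes passed, against 0.154% of all genes. Dmbt1 fell by 7.22 (edgeR adjusted p = 0.0237), Dram1 fell by 4.28 (adjusted p = 0.0237), Trf fell by 4.20 (adjusted p = 0.0333) and Lbp fell by 3.76 (adjusted p = 0.0333). The other 4 had values of -1.51 (Lyn) to -2.60 (Vtcn1), and all 8 had an unadjusted p under 0.05, as did 2023 of all genes. Adding Pdx1 to 6SA Ngn3-MafA, 2 of 8 passed, against 0.0833% of all genes. Dmbt1 fell by 6.52 (adjusted p = 0.0381) and Trf fell by 4.11 (adjusted p = 0.0424). Il1rn had a value of 0.27 (95% interval -1.15 to 1.70) and Tlr4 of -0.09 (95% interval -1.66 to 1.48) in that comparison. Lbp, Lyn, Dmbt1, Trf and Dram1 were lower in both 6SA samples with all 3 factors than in all 6 other 6SA samples with Ngn3, a separation seen in 4.57% of all genes. Without replicate 2 no member passed in either comparison, and with all libraries Trf passed in neither (adjusted p = 0.272 and 0.318).

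Whether Ngn3 lowered the genes more with Pdx1-MafA than with 1 factor was tested as an interaction in 6SA cultures. All 8 values were negative, from -1.30 (Tlr4) to -6.08 (Dmbt1), and 0 of 8 passed with edgeR, as 0% of all genes did. At an unadjusted p under 0.05 there were 5 members and 1379 of all genes. The smallest adjusted p, 0.183, was that of Dmbt1 and of Trf, and DESeq2 called 4 members lower, beside 100 of all genes.

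WT and 6SA Ngn3 were compared over Ngn3-Pdx1 and Ngn3-MafA cells, where 0 of 8 genes were lower with edgeR (0% of all genes) and the smallest adjusted p was 1.00. Dmbt1 was higher with 6SA Ngn3 by 1.48 (95% interval 0.20 to 2.76) and Dram1 was higher by 1.04 (95% interval 0.21 to 1.88) on the log2 scale, the 2 members with an unadjusted p under 0.05. Tlr4 had a value of -0.91 (95% interval -1.89 to 0.08). Comparing the Ngn3 effect of 6SA with that of WT cultures, which takes the cells without Ngn3 into account, gave 0 of 8 genes (0% of all genes) and 0 at an unadjusted p under 0.05, beside 580 of all genes. DESeq2 called 0 members lower in both, beside 1 and 2 of all genes. Values were between -0.83 (Tlr4) and 1.25 (Dmbt1), and the 95% intervals together span -2.34 to 3.18, so differences of several fold between the forms could not be seen.

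The 2 passages were compared where both held samples. Within passage 2 all 8 genes were lower with Ngn3 in each of the 5 pairs, on the means of 2 against 2 samples. In passage 5 only 6SA Ngn3-MafA and 6SA MafA each had a sample, and all 8 were lower there too, with log2 ratios of CPM + 1 of -0.24 to -3.49. Left-out libraries, all from cells with all 3 factors, held 241563 to 625650 gene counts. On plain library totals the 12 libraries with all 3 factors, these 3 included, had less of Lbp, Tlr4, Il1rn, Lyn, Vtcn1 and Dram1 than any of 29 libraries without Ngn3. For Dmbt1 and Trf this held for 11 of 12, and the exceptions were left-out 6SA libraries at 24.8 CPM (6 counts of Dmbt1) and 95.4 CPM (39 counts of Trf). These libraries include WT libraries of the selecting contrast and technical repeats of the same sample. The separation is therefore a description, and no share of all genes is given for it.

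Other genes of the same pathways were taken from lists drawn up with earlier results of these data known. Each list count below is to be read beside the shares of all genes. Over the 5 pairs 7.24% of all genes fell and 8.6% rose. In the 6SA comparison of all 3 factors with Pdx1-MafA 2.5% fell and 3.29% rose. Of 29 measured genes of the lipopolysaccharide and TLR4 pathway, 8 fell and 1 rose over the 5 pairs (median -0.25, against 0.07 over all genes). Cd14, the co-receptor that receives lipopolysaccharide from Lbp, fell by 3.24 as the mean of the 5 pairs (edgeR adjusted p = 2.54e-08). It was at 396 to 973 CPM in all samples without Ngn3 and at 6.58 to 34.8 CPM in those with all 3 factors. Tlr3, a receptor of double-stranded RNA, fell by 2.51 (adjusted p = 3.88e-06) and Tnfaip3, which restrains NF-kB signalling, fell by 1.94 (adjusted p = 0.000212). The adaptor Myd88 fell by 0.74 (adjusted p = 0.00149).

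Not every gene of that pathway fell. Ly96, the partner of Tlr4, had a value of -0.19 (SE 0.36, adjusted p = 0.962) and was at 5.56 to 26.3 CPM with all 3 factors. Ticam2, an adaptor, rose by 3.92 (adjusted p = 0.0247) from levels of at most 0.241 CPM. Between 6SA Ngn3-Pdx1-MafA and 6SA Pdx1-MafA, 3 of 29 fell, Cd14, Tlr3 and Tnfaip3, and 0 rose.

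**Figure D4:**
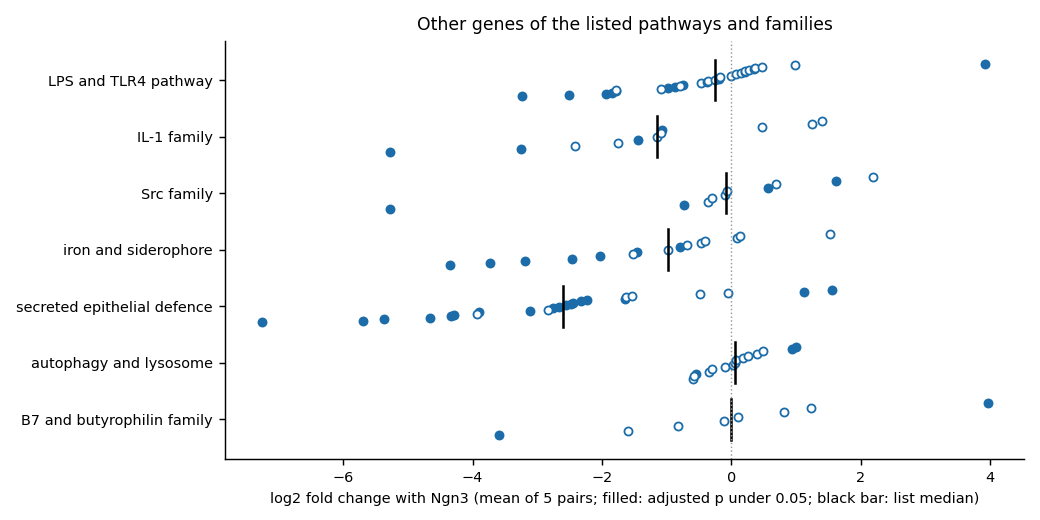
Log2 fold change with Ngn3, as the mean of 5 pairs of conditions, for measured genes of 7 lists related to the 8 members. Filled points have an adjusted p under 0.05 and black bars mark list medians, which are lowest, at -2.61, for secreted epithelial defence and near 0 for Src family, autophagy and lysosome, and B7 and butyrophilin genes.

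Among 11 measured genes of the interleukin-1 family, 4 fell and 0 rose (median -1.15). The median is imprecise, because the sparse genes Il1r2, Il1rl1 and Il1rl2 had SE of 2883, 127 and 4795. The receptor Il1r1 fell by 1.44 (edgeR adjusted p = 0.00107), the ligand Il1a fell by 5.27 (adjusted p = 0.00112) and the alarmin Il33 fell by 3.25 (adjusted p = 0.00206). Il1a was sparse, with a median of 2.18 CPM without Ngn3, and Il1b did not pass the filter on low values. In the 6SA comparison of all 3 factors with Pdx1-MafA, 0 of these 11 passed, and 0 rose.

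Genes of the Src-family list, which also holds regulators such as Csk, went both ways. Of 10 measured, Fgr fell by 5.28 (edgeR adjusted p = 0.000121) from a median of 3.73 CPM, and Frk fell by 0.73 (adjusted p = 0.0344). Fyn rose by 1.62 (adjusted p = 0.00221) and Csk, the kinase that inhibits the family, rose by 0.56 (adjusted p = 0.0355). Src, Yes1 and Lck had values of -0.06, -0.30 and -0.36 and did not pass. In the 6SA comparison of all 3 factors with Pdx1-MafA, Fgr fell and Fyn rose.

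Iron and siderophore genes fell in 7 of 15 cases and rose in 0 (median -0.98). Ltf, the iron-binding lactoferrin, fell by 4.35 (edgeR adjusted p = 7.89e-07), and Cp, the ferroxidase ceruloplasmin, fell by 2.46 (adjusted p = 5.7e-06). Lcn2, which binds bacterial siderophores, fell by 3.18 as the mean of the Ngn3 pairs (adjusted p = 2.79e-05). Its median level was 11507 CPM in samples without Ngn3 and 307 CPM in samples with all 3 factors. These medians describe classes of samples and are not the contrast behind the value of 3.18. Tfrc, the receptor of transferrin, fell by 0.79 (adjusted p = 0.0479), against a value of -1.83 for its ligand Trf, and this difference was not tested. In the 6SA comparison 3 of 15 fell, Ltf, Lcn2 and Cp.

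Secreted epithelial defence genes had the lowest median, at -2.61, with 16 of 24 lower and 2 higher. Clu, a secreted chaperone, fell by 2.22 (edgeR adjusted p = 5.83e-08), the membrane mucin Muc1 fell by 2.55 (adjusted p = 6.58e-08) and the neutrophil chemokine Cxcl5 fell by 4.29 (adjusted p = 3.67e-07). Cd55, which limits complement on cell surfaces, rose by 1.12 (adjusted p = 0.000904) and the trefoil peptide Tff2 rose by 1.55 (adjusted p = 0.0219). In the 6SA comparison 11 of 24 fell and 0 rose.

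The lists nearest to Dram1 and Vtcn1 had medians near 0. The autophagy and lysosome list of 15 genes also holds Trp53 and the cell-cycle inhibitor Cdkn1a. In it Dram2 fell by 0.55 (edgeR adjusted p = 0.0217). Cdkn1a rose by 0.99 (adjusted p = 0.000564) and Lamp1, a lysosomal membrane protein, rose by 0.94 (adjusted p = 0.0452). The median of this list was 0.05, against -3.51 for Dram1 itself. Of 8 genes of the B7 and butyrophilin families, Btn2a2 fell by 3.59 (adjusted p = 0.029) and Cd80 rose by 3.97 (adjusted p = 0.0156), both from medians of at most 0.838 CPM, and the list median was 0.00. In the 6SA comparison of all 3 factors with Pdx1-MafA, 2.5% of all genes fell. Trp53, on the autophagy and lysosome list, fell by 1.85 (edgeR adjusted p = 0.0257). There 0 of the 8 B7 and butyrophilin genes passed, and the median of that list was 1.73, against 0 over all genes.

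Across the 32 samples the 8 members varied together. Pearson's r between pairs of members, on log2(CPM + 1), ran from 0.67 (Trf with Il1rn) to 0.95 (Vtcn1 with Lbp) over 28 pairs, with a median of 0.85. These samples share conditions, and the selecting contrast is among them, so the values are a description. The genes most like the mean of the 8 members, among 10145 others with at least 10 CPM on average, were Cp (r = 0.96), Clu and the 6 genes Cd14, Tnfrsf11b, Scara3, Cldn2, C3 and Vnn1, with r of 0.94 to 0.95. For 7 of the members taken singly, the closest gene was C3 for Lbp (0.97), Slc26a9 for Dram1 (0.95), Spp1 for Vtcn1 (0.95) and for Trf (0.92), Ltf for Dmbt1 (0.92), AA986860 for Tlr4 (0.91) and Vnn1 for Lyn (0.90).

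Markers of cell types moved with the same conditions. The summed level of 10 duct markers was 15047 to 64507 CPM without Ngn3, 3741 to 21094 CPM with Ngn3 and 1 factor, and 2255 to 5315 CPM with all 3 factors. Krt19, a duct keratin, was at 567 to 1524 CPM without Ngn3 and at 5.27 to 128 CPM with all 3 factors, whereas Sox9 was at 44.5 to 257 CPM and 61.6 to 156 CPM. The summed level of 13 endocrine markers was 1.69 to 9.01 CPM without Ngn3 and 477 to 13598 CPM in the samples with it. Their part in the result was not tested.

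Leukocytes express several of the 8 genes, so their markers were measured as well. The summed level of 16 macrophage and other leukocyte markers was 4.32 to 34.8 CPM without Ngn3, 8.43 to 44.7 CPM with Ngn3 and 1 factor, and 12.6 to 41.0 CPM with all 3 factors. The macrophage marker Cd68 made up most of the sum with all 3 factors, at 9.31 to 37.3 CPM, whereas Csf1r was at 0.12 to 11.7 CPM without Ngn3 and at 0 to 0.27 CPM with all 3 factors. Their part in the result was not tested. Adgre1, Tyrobp and Mpo had 0 counts in every sample, and Ptprc, which marks leukocytes, was at 0 in 31 of 32 samples and at 4.14 CPM in a 6SA Ngn3-Pdx1-MafA sample. The levels of Lbp, Il1rn, Dmbt1, Trf and Dram1 without Ngn3 were each above 100 CPM in every sample. Summed markers of fibroblast and stellate cells (8 genes) reached 298 CPM in a WT Ngn3-MafA sample and were otherwise at most 19.6 CPM. Endothelial markers (5 genes) were at most 27.0 CPM and acinar markers (9 genes) at most 49.7 CPM. The median acinar sum was 6.13 CPM without Ngn3, 7.54 CPM with Ngn3 and 1 factor and 23.5 CPM with all 3 factors. Its part in the result was not tested. The summed level of 6 proliferation markers was 186 to 1740.2 CPM without Ngn3 and 40.7 to 117 CPM with all 3 factors, and its part in the result was not tested either.

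**Figure D5:**
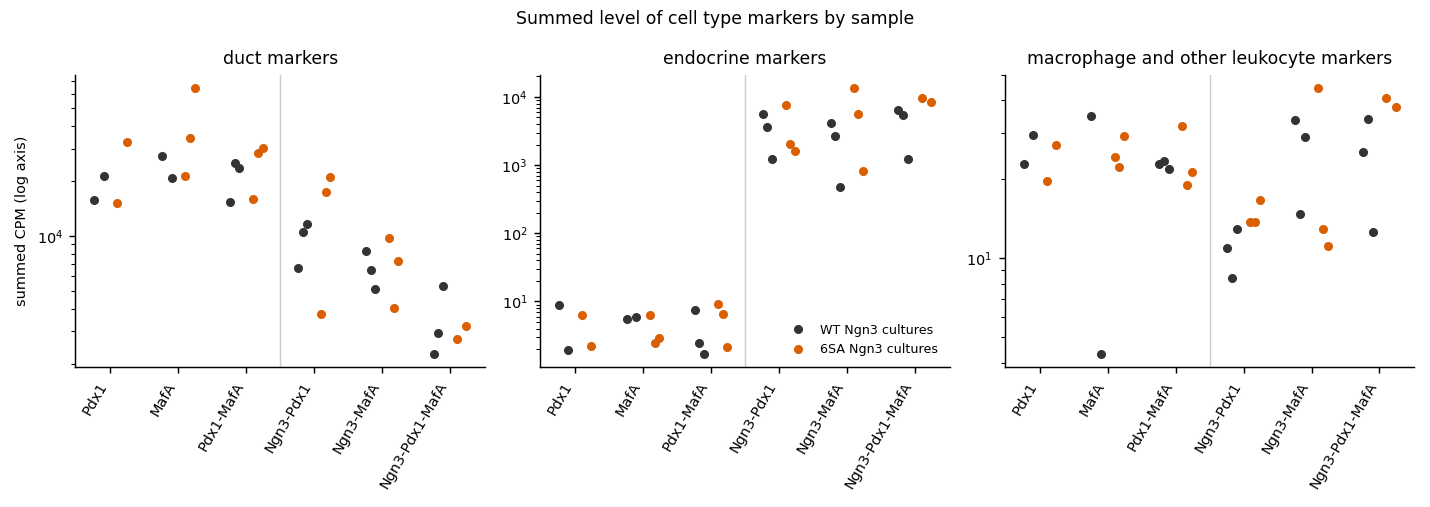
Summed CPM of duct (10 genes), endocrine (13 genes) and macrophage and other leukocyte (16 genes) markers in every sample, on log axes, for WT (black) and 6SA (orange) Ngn3 cultures. Duct markers are at 2255 to 5315 CPM with all 3 factors, which overlaps the 3741 to 21094 CPM with Ngn3 and 1 factor. Endocrine markers are at 9.01 CPM or less without Ngn3, and leukocyte markers are at most 44.7 CPM in all conditions.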

How the data were processed

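RNA from pools of 50 sorted cells was sequenced, and the authors deposited raw read counts per gene for every library. Per the labels, reads were aligned to mm10 with GSNAP and counted with HTSeq (0.5.3p3) against Ensembl genes; the strand setting is not given in the sources used here. Spike-in and HTSeq summary lines were left out of library sizes. Of the reads, 12.2 to 29.4% in kept libraries were unaligned. Libraries with over 1000000 gene counts, over 10000 detected genes and under 25% spike-in counts were kept (58 of 61) and technical repeats were summed to 32 samples, grouped by condition as labelled. Genes detected in at least 5 libraries and with a CPM variance over 0.001 were tested (24004). One model of 12 conditions was fitted with edgeR 4.0.16 (R 4.3.3; TMM, quasi-likelihood test, Benjamini-Hochberg adjustment), with standard errors from the F statistic; DESeq2 1.42.0, other filters and scalings, a replicate block and left-out replicates were alternatives. The fit was tested on simulated data. Tables and plots used pandas 2.3.3, numpy 2.4.6 and matplotlib 3.10.9. Positions come from GENCODE M21.

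The members and lists were chosen with earlier results of these data known. Named were all 8 members, up to 3 genes per direction and list with the lowest adjusted p over the 5 Ngn3 pairs, a few preset pathway genes, and the genes closest in pattern. Some genes that this rule names are not reported here. Same-numbered samples deviated together in 6SA Ngn3-MafA and 6SA MafA (r of 0.236 to 0.443 over 3 pairs) and in 6SA Pdx1-MafA and 6SA MafA (0.255 to 0.822), so numbers pair these samples; other comparisons tested had 2 pairs.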

Additional observations from a re-analysis of the deposited data

How the results depend on the processing

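Averaged over the 5 Ngn3 pairs, all 8 genes were lower in every alternative run. Of 177 alternative counts of lower members 155 were within 1.5 times the reported count, and of 824 alternative log2 fold changes 27 no longer passed, 53 newly passed and 3 changed sign. Those 3 passed neither before nor after and belong to all 3 factors against 6SA Ngn3-MafA, where Tlr4 went from -0.09 to 0.63 with the first technical repeat only and to 0.78 without replicate 1, and Il1rn from 0.27 to -0.95 without replicate 2. With a replicate left out, Tlr4 ran from -1.16 to 0.78 and Il1rn from -0.95 to 0.84 there. DESeq2 gave 1 lower member for WT Ngn3-Pdx1 against WT Pdx1 and 1 for the 6SA pair, 5 for 6SA Ngn3-MafA against 6SA MafA, 4 for all 3 factors against 6SA Ngn3-MafA and 4 for the 6SA interaction. With no filter on low values these were 3, 3, 5, 4 and 4. Fitted with a replicate block, 1 member was lower in 6SA Ngn3-Pdx1 against 6SA Pdx1 and 4 in all 3 factors against 6SA Ngn3-MafA, which was also 4 without the samples of the selecting contrast and 4 with the newer edgeR dispersion setting. The block raised the count of all lower genes from 1737 to 2395 over the 5 pairs, from 600 to 1040 for all 3 factors against 6SA Pdx1-MafA, from 85 to 297 for WT Ngn3-MafA and from 97 to 278 for 6SA Ngn3-MafA; where only 2 pairs exist the samples share a number only.

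Leaving out a replicate gave 3 to 8 lower members for 6SA Ngn3-Pdx1-MafA against 6SA Pdx1-MafA and 0 to 4 against 6SA Ngn3-Pdx1, with 0 without replicate 2 and 1 without replicate 3. It gave 0 to 2 against 6SA Ngn3-MafA, 0 to 3 for WT Ngn3-MafA (0 without replicate 2, 1 without replicate 3), 0 to 4 for 6SA Ngn3-MafA (0 without replicate 2) and 0 to 2 for the 6SA interaction (2 without replicate 1). A condition left with 1 sample is assumed to vary like the others. Vtcn1 in all 3 factors against 6SA Pdx1-MafA had an adjusted p of 0.000267 to 0.117 over 13 alternatives. Another scaling or filter moved the median of all genes over the 5 pairs to between 0.04 and 0.15, small beside the members' changes. With plain library totals 7 of 96 mean levels moved by more than 1 SD. The cause of these differences was not tested. Levels of Tlr4, Dmbt1 and Vtcn1 with all 3 factors rest on few counts, so their folds are imprecise.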
